A study of Mus musculus with 9 samples.

Results

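Transcripts of 8 genes were followed in hippocampal synaptoneurosomes: Fmr1, its paralogs Fxr1 and Fxr2, and genes for protein partners of FMRP, namely Cyfip1, Cyfip2, Nufip1, Caprin1 and Eif4e. They were given by name, and their rows were found by matching Ensembl gene identifiers to these symbols. All 8 were among the 22255 genes of the table, and all 8 were among the 14512 genes with enough counts to be tested. Synaptoneurosomes are resealed synaptic endings recovered from homogenised tissue. All 9 samples were labelled as Fmr1 knockout mice of strain C57Bl/6J, so the knockout is shared by treated and control samples and there is no wild-type sample among them. The groups were 4 samples given AM6545 (A, B, C and E) and 5 given vehicle (A to E), both sub-chronically. AM6545 is an antagonist of the cannabinoid receptor CB1 that enters the brain poorly. The knockout allele, the age and sex of the mice, the dose, and whether samples came from single or pooled animals are not given in the sources used here. The p-values below therefore measure only the spread between these samples, which may be technical.

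FMRP, the product of Fmr1, binds messenger RNAs and ribosomes and holds back the translation of many of its targets, also in dendrites and at synapses. Its loss causes fragile X syndrome in humans. FXR1P and FXR2P are RNA-binding proteins of the same family. CYFIP1 binds both FMRP and eIF4E, the protein that recognises the cap of messenger RNAs, and so links FMRP to the blocking of initiation. CYFIP1 and CYFIP2 are also alternative subunits of the WAVE complex, which drives branching of actin filaments. Caprin1 is an RNA-binding protein of neuronal transport granules and stress granules, and NUFIP1 is a nuclear RNA-binding protein that helps assemble small nucleolar ribonucleoproteins.

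The family members are similar in sequence, which matters for how reads are assigned to them, so the most alike stretches are shown. In the GENCODE M21 annotation of mouse build GRCm38, the coding sequences of Fmr1 and Fxr1 were 73.4% identical over 1584 aligned bases, those of Fmr1 and Fxr2 70.9% identical over 1541, and those of Fxr1 and Fxr2 72.3% identical over 1830. The longest identical runs in these pairs were 14, 14 and 20 bases. The window of 90 bases, within 1 exon of each gene, in which Fxr1 and Fxr2 together differed least from Fmr1 lay in exon 8 of all 3 genes. It is at chrX:68700106-68700195 in Fmr1, chr3:34049199-34049288 in Fxr1 and chr11:69648851-69648940 in Fxr2, on the plus strand in each. The lines below read 5′ to 3′ along the transcript, with capitals where a paralog differs from Fmr1.
Fmr1: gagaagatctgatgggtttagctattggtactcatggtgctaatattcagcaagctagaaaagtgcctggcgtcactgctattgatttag
Fxr1: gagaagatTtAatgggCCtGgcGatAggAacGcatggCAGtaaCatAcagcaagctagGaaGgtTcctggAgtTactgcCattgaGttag
Fxr2: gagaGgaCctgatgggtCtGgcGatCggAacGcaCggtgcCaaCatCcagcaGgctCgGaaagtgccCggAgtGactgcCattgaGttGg
Even here Fxr1 and Fxr2 each differed from Fmr1 at 21 of 90 bases.

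Cyfip1 and Cyfip2 were closer to each other, with 78.6% identity over 3736 aligned coding bases and a longest identical run of 24 bases. Their most alike window of the same length lay in exon 17 of both genes, at chr7:55899923-55900012 on the plus strand for Cyfip1 and chr11:46254569-46254658 on the minus strand for Cyfip2. Capitals mark where Cyfip2 differs from Cyfip1.
Cyfip1: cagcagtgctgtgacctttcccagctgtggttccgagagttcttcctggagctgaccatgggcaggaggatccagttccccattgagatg
Cyfip2: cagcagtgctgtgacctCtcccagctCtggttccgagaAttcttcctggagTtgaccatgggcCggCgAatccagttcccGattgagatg
These windows differed at 8 of 90 bases. Among the genes of the table, only Nipa2 had a transcript stretch of at least 100 bases that was at least 95% identical to a transcript of one of the 8 genes: it shared 1316 bases with Cyfip1, its neighbour on chromosome 7, whose annotated exons overlap its own. Fxr1 exons overlap those of Dnajc19. The other 6 genes overlapped no exon of another gene in the table. Matches and overlaps were counted on either strand, so the stretch of Nipa2 may run in the opposite sense to Cyfip1. The estimated count of Fmr1 was exactly whole, with no tolerance, in 8 of 9 libraries (and within 0.009 of a whole number in the other) and that of Nufip1 in 6 of 9, whereas those of Cyfip1, Cyfip2, Caprin1 and Eif4e were whole in none.

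The libraries held 17628922 (vehicle A) to 27263393 (vehicle B) estimated counts. All 9 neuronal and all 8 hippocampal marker genes reached 1 CPM (counts scaled to a common library size) in every library. So did all 6 astrocyte, all 6 oligodendrocyte and all 6 microglial markers, so this level does not set neuronal RNA apart. Neuronal markers summed to 8299 to 9184 CPM with AM6545 and 7360 to 9926 CPM with vehicle. Choroid plexus markers, genes of the tissue that makes cerebrospinal fluid, summed to 454 to 3499 CPM with AM6545 and 309 to 10761 CPM with vehicle. All 6 of them had a negative log2 fold change, with a median of -1.49. Oligodendrocyte markers summed to their highest levels in vehicle A (17161 CPM) and AM6545 E (14861 CPM), against 8618 to 14303 CPM elsewhere. The part of these differences in the results was not tested. In bulk RNA of this kind, fewer particles or cells of a type and less RNA in each cannot be told apart.

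None of the 8 genes passed the test between AM6545 and vehicle (edgeR's quasi-likelihood test, adjusted p over all genes tested, threshold 0.05), and 0% of the 14512 genes tested did. The smallest adjusted p in the table was 0.653. At an unadjusted p under 0.05, 1 of the 8 genes stood out, Cyfip1, higher with AM6545. Of all genes, 7.21% reached this, 3.03% with higher and 4.18% with lower values under AM6545. Log2 fold changes, AM6545 relative to vehicle throughout, were above 0 for 5 of the 8 genes (48.2% of all genes) and had a median of 0.10 (-0.0090 for all genes). In none of the 8 did the groups' CPM ranges separate, as they did for 1.45% of genes. The largest fold changes in each direction were 0.27 for Cyfip1 and -0.22 for Fmr1.

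**Figure D1:**
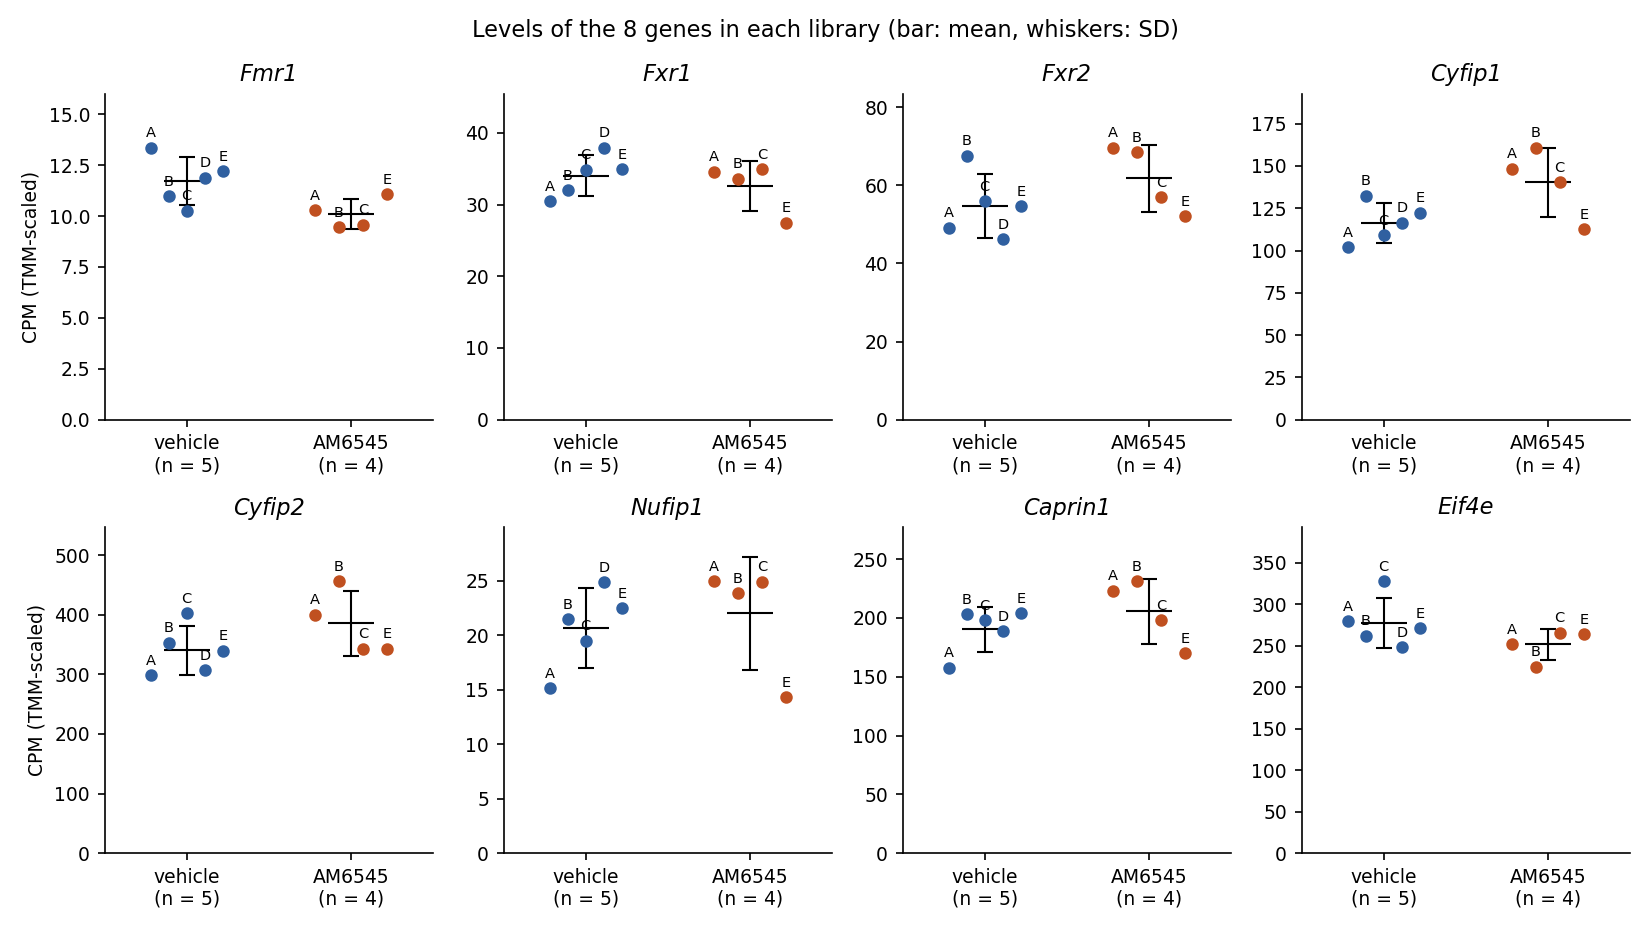
CPM of each of the 8 genes in the 4 AM6545 and 5 vehicle libraries, one panel a gene, each point a library with its letter, horizontal bars the group means and whiskers the SD. The groups overlap in all 8 panels; Cyfip1 has 3 AM6545 libraries above every vehicle library, and Fmr1 has 2 below every vehicle library.

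Fmr1 (ENSMUSG00000000838, X chromosome, plus strand, 68678541 to 68717963 in GRCm38) was counted in every library, at 199 to 310 estimated counts, although every library is labelled as knockout. A count over the whole gene does not say which exons the reads cover, and with no wild-type library the knockout cannot be checked from these counts. Scaled to library size, Fmr1 stood at 10.3, 9.45, 9.57 and 11.1 CPM with AM6545 (A, B, C, E) and at 13.3, 10.98, 10.3, 11.9 and 12.2 CPM with vehicle (A to E). All 4 AM6545 libraries lay below the vehicle mean, AM6545 B and C lay below every vehicle library, and vehicle A was the highest of all. The means were 10.1 ± 0.754 CPM (SD, n = 4) and 11.7 ± 1.18 CPM (SD, n = 5). The log2 fold change was -0.22 (SE 0.11, 95% interval -0.46 to 0.03), with an edgeR adjusted p of 0.653. Leaving out single libraries moved it between -0.26 and -0.17, the latter without vehicle A. Counting alone gives an SD of about 0.09 log2 units at this depth, against 0.13 between libraries of a group.

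The autosomal paralogs stood higher in CPM and differed from each other in pattern. Fxr1 (ENSMUSG00000027680, chromosome 3) stood at 34.6, 33.6, 34.9 and 27.5 CPM with AM6545 and at 30.4, 32.0, 34.9, 37.9 and 35.0 CPM with vehicle. Apart from the lowest library, AM6545 E, the treated libraries lay inside the vehicle range, and the means were 32.6 ± 3.51 CPM with AM6545 (SD, n = 4) and 34.0 ± 2.91 CPM with vehicle (SD, n = 5). The log2 fold change was -0.06 (SE 0.10, 95% interval -0.28 to 0.16, edgeR adjusted p 0.877), and its sign rested on that library, since it was 0.013 without AM6545 E. Fxr2 (ENSMUSG00000018765, chromosome 11) stood at 69.6, 68.5, 57.0 and 52.1 CPM with AM6545 and at 49.1, 67.6, 55.9, 46.2 and 54.7 CPM with vehicle. AM6545 A and B were the highest libraries, with vehicle B close under them, and the other libraries of both groups were interleaved. Mean Fxr2 was 61.8 ± 8.59 CPM with AM6545 and 54.7 ± 8.22 CPM with vehicle. Its log2 fold change was 0.17 (SE 0.12, 95% interval -0.09 to 0.44, edgeR adjusted p 0.701). It was 0.27 without vehicle B (edgeR unadjusted p 0.0443, adjusted p 0.384) and 0.11 to 0.12 without AM6545 A, AM6545 B or vehicle D.

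Ratios taken within a library do not depend on how libraries are scaled. Fmr1 counts amounted to 14.8%, 13.8%, 16.8% and 21.3% of Fxr2 counts with AM6545 and to 27.2%, 16.3%, 18.4%, 25.7% and 22.3% with vehicle. The lowest values were in AM6545 A and B and the highest in vehicle A and D, with the groups overlapping between 16.3% and 21.3%. The log2 ratio differed by -0.39 between groups (two-sided exact permutation test over 126 regroupings, p = 0.0952, adjusted over 5 ratios 0.238), where 0.0159 is the smallest p the design allows. Leaving out 1 library moved it between -0.52 and -0.31. Fmr1 amounted to 31.4% ± 6.06 (SD, n = 4) of Fxr1 with AM6545 and 34.8% ± 5.55 (SD, n = 5) with vehicle, a log2 difference of -0.15 (exact permutation p = 0.413, adjusted 0.516). This difference was -0.06 without vehicle A and -0.28 without AM6545 E (exact permutation p = 0.0714, adjusted 0.119). Fxr1 amounted to 53.2% ± 5.63 of Fxr2 with AM6545 and 63.6% ± 12.3 with vehicle, a log2 difference of -0.24 (exact permutation p = 0.206, adjusted 0.344). The Fxr1 to Fxr2 difference ranged from -0.34 without vehicle B (exact permutation p = 0.0286, adjusted 0.143) to -0.14 without vehicle D. None of the 3 ratios within the family passed the permutation test after adjustment, and the groups overlapped in each.

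**Figure D2:**
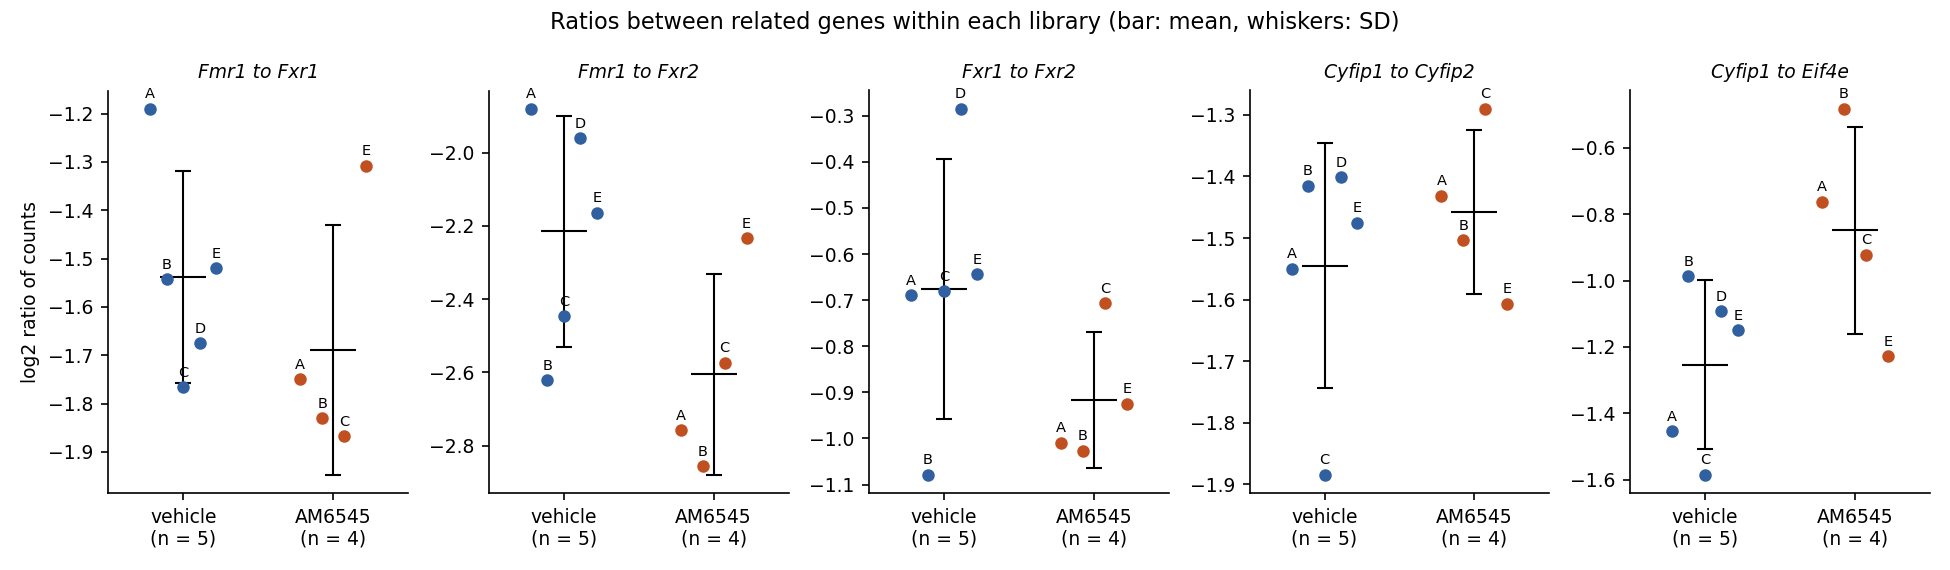
Log2 ratio of counts within each library for 5 pairs of genes, each point a library with its letter, horizontal bars the group means and whiskers the SD. The groups overlap in all 5; the difference of means is -0.39 for Fmr1 to Fxr2 and 0.41 for Cyfip1 to Eif4e.

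Cyfip1 (ENSMUSG00000030447, chromosome 7) had the largest fold change of the 8 genes. It stood at 148, 161, 140 and 113 CPM with AM6545 and at 102, 132, 109, 116 and 122 CPM with vehicle. AM6545 A, B and C lay above every vehicle library, and AM6545 E lay among the vehicle libraries. The means were 140.5 ± 20.4 CPM (SD, n = 4) and 116.4 ± 11.7 CPM (SD, n = 5). On the log2 scale this was a fold change of 0.27 with an SE of 0.11 and a 95% interval of 0.03 to 0.51. The edgeR unadjusted p was 0.0321, a value that 4.27% of all genes reached, and the adjusted p was 0.653. Without AM6545 B the fold change was 0.20 and without AM6545 E 0.36. The unadjusted p was under 0.05 in 14 of 22 alternatives, and was above it, among others, when AM6545 A, B or C or vehicle A, C or D was left out or when each library's trend with transcript length was removed. With vehicle A and AM6545 E both left out, which was added once the data had been seen, the log2 fold change was 0.32 (edgeR unadjusted p 0.00499, adjusted p 0.564). Nipa2, a magnesium transporter gene whose exons overlap Cyfip1 in the annotation, had 74.2 ± 11.8 CPM with AM6545 and 79.0 ± 2.79 CPM with vehicle (log2 fold change -0.09, edgeR adjusted p 0.814). How reads in the shared stretch were divided between the genes is not given in the sources used here.

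Cyfip2 (ENSMUSG00000020340, chromosome 11) stood at 400, 456, 343 and 343 CPM with AM6545 and at 299, 353, 403, 307 and 340 CPM with vehicle. AM6545 B was the highest and vehicle A the lowest, and all 4 AM6545 libraries lay above the vehicle mean while overlapping the vehicle range. The means were 385.5 ± 54.1 CPM with AM6545 and 340.4 ± 41.5 CPM with vehicle. The log2 fold change was 0.18 (SE 0.12, 95% interval -0.08 to 0.44, edgeR adjusted p 0.687), and 0.09 without AM6545 B. Cyfip1 counts amounted to 36.5% ± 3.39 (SD, n = 4) of Cyfip2 counts with AM6545 and 34.5% ± 4.41 (SD, n = 5) with vehicle. That is a log2 difference of 0.09 (exact permutation p = 0.556, adjusted 0.556), with vehicle C lowest at 27.1% and AM6545 C highest at 40.9%. The difference rested on these libraries, at 0.0024 without vehicle C and 0.03 without AM6545 C.

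The rest of the WAVE complex, with its activator and its Arp2/3 effector, comprised 13 other genes, all tested. None passed the adjusted threshold, 6 had fold changes above 0 and 7 below, and the median log2 fold change was -0.02. Wasf3, one of the WAVE proteins itself, was the only one at an unadjusted p under 0.05. That is 7.69% of this list, against 7.21% of all genes tested. Wasf3 stood at 17.9 ± 3.40 CPM with AM6545 against 22.6 ± 3.38 CPM in vehicle (log2 fold change -0.34, SE 0.14, edgeR adjusted p 0.653). Of the AM6545 libraries, 3 lay below every vehicle library, and vehicle A, at 28.6 CPM, was the highest. At the other end was Nckap1l, the subunit of the haematopoietic lineage, at 6.83 ± 0.783 against 5.74 ± 1.02 CPM (0.25). Nckap1, the subunit found in neurons and the highest of the list in CPM, stood at 555 ± 34.9 against 504 ± 72.8 CPM (0.14). Of 8 genes beside Fmr1 or Cyfip1 on their chromosomes, 7 were tested (Fmr1nb was under the count filter) and none reached an unadjusted p under 0.05. Their log2 fold changes ran from -0.12 for Ids, a lysosomal sulfatase gene and the highest of them in CPM (170 ± 28.8 against 184 ± 20.4), to 0.30 for Aff2, an AF4-family gene of the X chromosome (2.45 ± 0.306 against 1.99 ± 0.380 CPM).

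**Figure D3:**
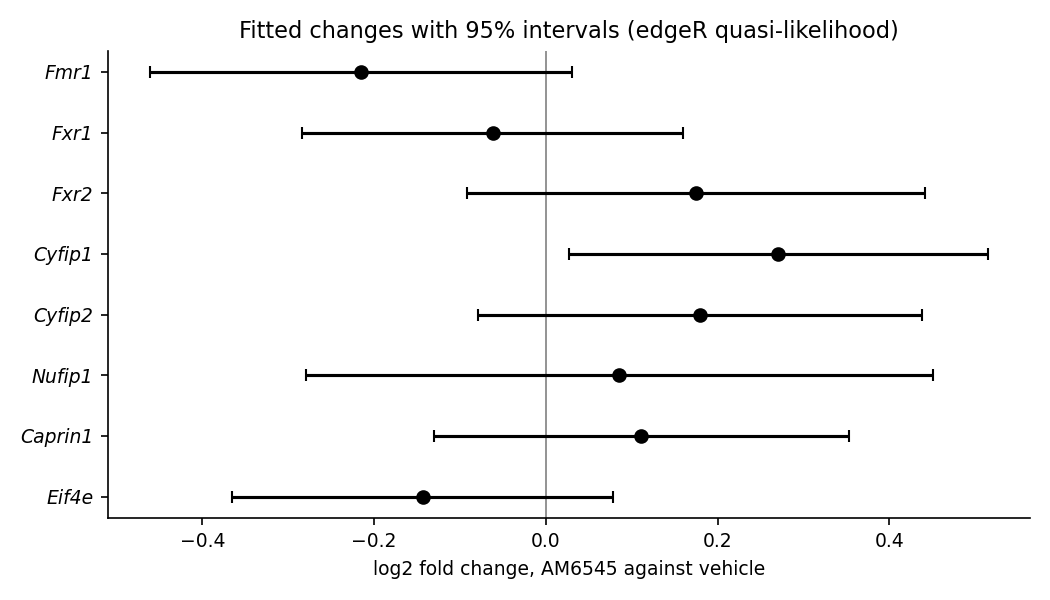
Log2 fold change of each of the 8 genes, AM6545 relative to vehicle, on the horizontal axis, as a point with its 95% interval from edgeR. The interval of Cyfip1 lies above 0 before adjustment, and those of the other 7 genes hold 0.

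Eif4e (ENSMUSG00000028156, chromosome 3) stood at 252, 225, 266 and 264 CPM with AM6545 and at 279, 262, 327 and 271 CPM in vehicle A, B, C and E, with 248 CPM in vehicle D. All 4 AM6545 libraries lay below the vehicle mean, AM6545 B was the lowest and vehicle C stood above all the rest. The means were 251.4 ± 19.0 CPM (SD, n = 4) and 277.7 ± 30.1 CPM (SD, n = 5), and the log2 fold change was -0.14 (SE 0.10, 95% interval -0.36 to 0.08, edgeR adjusted p 0.701). It was -0.08 without vehicle C, -0.09 without AM6545 B and -0.07 with each library's trend with transcript length removed (edgeR adjusted p 0.857). Cyfip1 and Eif4e encode directly binding partners, and their fold changes had opposite signs. Cyfip1 counts amounted to 59.0%, 71.6%, 52.8% and 42.7% of Eif4e counts with AM6545 and to 36.5%, 50.4%, 33.3%, 46.9% and 45.1% with vehicle. AM6545 A, B and C lay above every vehicle library and AM6545 E among them. The log2 ratio differed by 0.41 (exact permutation p = 0.0952, adjusted over 5 ratios 0.238), and by 0.28 to 0.53 when 1 library was left out. The value of 0.53 was without AM6545 E (exact permutation p = 0.0357, adjusted 0.119). With each library's trend with transcript length removed, the fold changes were 0.23 for Cyfip1 and -0.07 for Eif4e. With group means removed, log2 CPM of these genes had r = -0.56 across libraries (exact permutation p = 0.130, adjusted over 28 pairs 0.276).

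Among 16 genes for other cap-binding and initiation proteins, their inhibitors and kinases, 15 were tested, 9 with fold changes above 0 and 6 below. None reached an unadjusted p under 0.05, and the median log2 fold change was 0.03. Eif4g1, the scaffold that eIF4E recruits, stood at 121 ± 11.98 against 110 ± 6.50 CPM (0.13). Eif4ebp1, which encodes an inhibitor that competes for eIF4E, stood at 3.30 ± 0.722 against 4.12 ± 1.01 CPM (-0.31). Eif4a2, a helicase gene and the highest of the list in CPM, stood at 489 ± 29.8 against 533 ± 57.0 CPM (-0.13). Eif4ebp3 was under the count filter.

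Caprin1 (ENSMUSG00000027184, chromosome 2) stood at 223, 231, 198 and 170 CPM with AM6545 and at 158, 203, 198, 188 and 204 CPM with vehicle. The highest libraries were AM6545 A and B, and the lowest were vehicle A and AM6545 E, so both groups spanned most of the range. Mean Caprin1 was 205.6 ± 27.4 CPM with AM6545 and 190.3 ± 19.2 CPM with vehicle. The log2 fold change was 0.11 (SE 0.11, 95% interval -0.13 to 0.35, edgeR adjusted p 0.779). It was 0.05 without AM6545 B and 0.19 without AM6545 E.

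Of 18 genes for partners of Caprin1 and other proteins of RNA granules, 17 were tested (Igf2bp1 was under the count filter), with 10 fold changes above 0, 7 below and a median of 0.01. Usp10, a deubiquitinase that binds the Caprin1 partners G3BP1 and G3BP2, had the largest fold change and was the only one at an unadjusted p under 0.05. That is 5.88% of the genes tested from this list, against 7.21% of all genes tested. Usp10 stood at 73.1, 73.9, 63.4 and 55.3 CPM with AM6545 and between 50.1 and 63.4 CPM with vehicle (log2 fold change 0.24, SE 0.11, edgeR adjusted p 0.653). As for Cyfip1, AM6545 E lay within the vehicle range. Pum2, a translational repressor gene, stood at 31.0 ± 3.50 against 37.0 ± 5.88 CPM (-0.25). Hnrnpa2b1, whose product carries RNAs in transport granules and which was the highest of the list in CPM, stood at 695 ± 128 against 689 ± 90.7 CPM (0.01).

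Nufip1 (ENSMUSG00000022009, chromosome 14) varied most from library to library. It stood at 25.0, 23.9, 24.9 and 14.3 CPM with AM6545 and at 15.1, 21.5, 19.5, 24.9 and 22.5 CPM with vehicle. AM6545 E and vehicle A stood low, and the other 3 AM6545 libraries lay at the upper end of the range with vehicle D. The means were 22.02 ± 5.17 CPM (SD, n = 4) with AM6545 and 20.7 ± 3.65 CPM (SD, n = 5) with vehicle. The log2 fold change was 0.09 (SE 0.17, 95% interval -0.28 to 0.45, edgeR adjusted p 0.898). It was 0.25 without AM6545 E and -0.0060 without vehicle A, so its sign rested on vehicle A. Its SD within groups was 0.33 log2 units, larger than in 81.0% of genes tested, where the median gene had 0.20. Fmr1, Eif4e and Fxr1 varied least, at 0.13, 0.14 and 0.14 log2 units.

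All 10 genes for the assembly factors and core proteins of box C/D ribonucleoproteins were tested, 5 with fold changes above 0 and 5 below. Ruvbl1, an ATPase gene, stood at 78.4 ± 19.5 against 73.1 ± 8.92 CPM (log2 fold change 0.10). Znhit3, which encodes the protein that stabilises NUFIP1, stood at 34.7 ± 3.59 against 40.5 ± 6.23 CPM (-0.22). The highest of this list in CPM was Snu13, a core protein gene, at 162 ± 6.47 against 187 ± 19.4 CPM (-0.20). Of 18 other genes for proteins that bind FMRP or act on its phosphorylation, all tested, 6 had fold changes above 0 and 12 below, with a median of -0.03. Kcnt1, a sodium-activated potassium channel gene, stood at 12.3 ± 0.958 against 10.5 ± 1.01 CPM (0.23). Dicer1, for the nuclease that makes microRNAs, stood at 0.741 ± 0.179 against 0.902 ± 0.282 CPM (-0.25), and Ppp2ca, a phosphatase subunit gene and the highest of the list in CPM, at 797 ± 70.5 against 815 ± 72.0 CPM (-0.03). No gene of either list reached an unadjusted p under 0.05.

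Levels can be set side by side between genes once divided by transcript length. In CPM per kilobase, with the median length of each gene's protein-coding transcripts, the level over all 9 libraries was 310.8 ± 32.6 (SD, n = 9) for Eif4e, 102.5 ± 11.99 for Caprin1, 57.2 ± 7.98 for Cyfip2 and 30.4 ± 4.70 for Cyfip1. Below these came Fxr2 at 19.6 ± 2.94, Fxr1 at 15.7 ± 1.44, Nufip1 at 5.36 ± 1.04 and Fmr1 at 2.66 ± 0.311. Each gene lay above the next in 9 of 9 libraries with no overlap of ranges, except Fxr2, which lay above Fxr1 in 8 of 9. Fmr1 was the lowest of the 8 in CPM per kilobase in every library, all of them labelled as Fmr1 knockout. In mean CPM not divided by length, 36.6% of tested genes lay below Fmr1. The upper order depends on which transcript is taken as the length: with the longest one, Cyfip2 stood at 54.1 and Eif4e at 53.3 CPM per kilobase, with Cyfip2 above in 3 of 9 libraries, and Cyfip1 (19.7) did not separate from Fxr2 (19.6). Fmr1 and Nufip1 stayed at the bottom with either length. The median length can be shorter than a complete coding sequence. For Caprin1 it was 1923 bases, against 2121 bases in its longest coding sequence. For Eif4e it was 856 bases, more than the 651 bases of its coding sequence, against 4991 in the longest transcript.

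**Figure D4:**
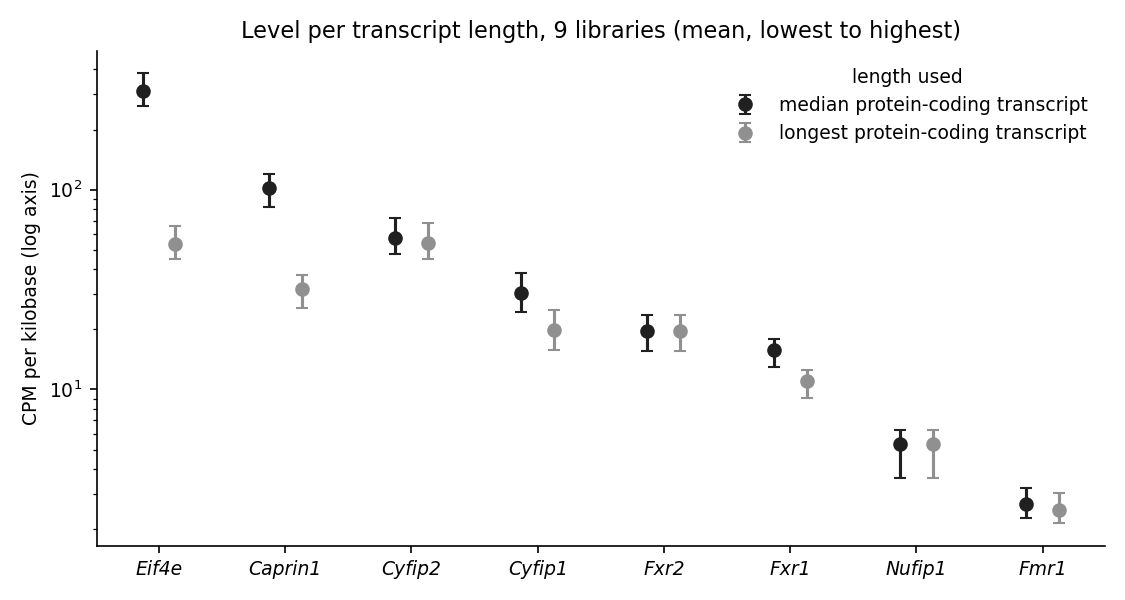
Level of each gene in CPM per kilobase of transcript on a log axis, as the mean over 9 libraries with whiskers from the lowest to the highest, by the median (black) or longest (grey) protein-coding transcript. Fmr1 is lowest with either length; the value for Eif4e goes from 310.8 to 53.3 with the longest transcript.

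With the group means removed, the 8 genes were then compared across the 9 libraries, which share their depth and composition within each library. Of 28 pairs, 16 had a positive correlation of log2 CPM, 8 reached an unadjusted exact permutation p under 0.05 and none passed after adjustment over the 28. Fxr1 and Nufip1 varied most alike (Pearson r = 0.92, exact permutation p = 0.00556, adjusted 0.0778; Spearman rho = 0.97, p = 0.00451, adjusted 0.0632). Both were lowest in AM6545 E and vehicle A, and without these libraries r was 0.65. Cyfip1 and Caprin1 followed (r = 0.90, exact permutation p = 0.00278, adjusted 0.0778; rho = 0.87, p = 0.00382, adjusted 0.0632), with r = 0.80 without AM6545 B and E. Nufip1 and Caprin1 had r = 0.82 (exact permutation p = 0.0434, adjusted 0.145; rho = 0.47, p = 0.276, adjusted 0.484), but r = -0.27 without AM6545 E and vehicle A, so that relation rests on these libraries. Cyfip1 and Nufip1 had r = 0.83 (exact permutation p = 0.0267, adjusted 0.145, with rho = 0.53), and r = 0.70 without AM6545 B and E. The libraries left out were those farthest from the median of the first gene named, so they differ between pairs. For Cyfip1 and Caprin1 this kept vehicle A, the lowest library of both genes. AM6545 E and vehicle A were also the libraries with the highest oligodendrocyte marker sums, given above. Vehicle D, next at 14303 CPM, had the highest Fxr1 of all libraries (37.9 CPM) and Nufip1 at 24.9 CPM. The part of these sums in the correlations was not tested.

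Fmr1 had a negative Pearson r to each of the other 7 genes. Among the 7, r was farthest from 0 with Cyfip2 (r = -0.73, exact permutation p = 0.0403, adjusted 0.145; rho = -0.78, p = 0.0278, adjusted 0.156), and r was -0.50 without vehicle A and C. With libraries scaled by total counts only, all 7 were again negative, but Fmr1 and Cyfip2 had r = -0.47 (exact permutation p = 0.219, adjusted 0.409; rho = -0.47, p = 0.262, adjusted 0.611) and the value farthest from 0 was that with Nufip1 (-0.56), so the size and the order depend on the scaling. With TMM scaling it was nearest to 0 for Eif4e (r = -0.19, exact permutation p = 0.688, adjusted 0.736; rho = 0.08, p = 0.867, adjusted 0.867), where the rank correlation had the other sign. Under total counts the shared sign rested on AM6545 E and vehicle A. Without them r was positive for Fxr1 (0.43), Fxr2 (0.04), Cyfip1 (0.34), Nufip1 (0.68) and Caprin1 (0.35). It stayed negative for Cyfip2 (-0.16) and Eif4e (-0.25). With TMM scaling and without vehicle A and C, r was 0.38 for Eif4e and negative for the others. Vehicle A held the highest Fmr1 and the lowest Cyfip1, Cyfip2 and Caprin1 of all libraries. Eif4e shared most of this pattern with TMM scaling. Its r was -0.21 with Fxr1, -0.16 with Fxr2, -0.56 with Cyfip1, -0.40 with Nufip1 and -0.29 with Caprin1. With Cyfip2 it was 0.06. Under total counts the r of Eif4e was positive with Fxr2 (0.05) and Cyfip2 (0.26).

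**Figure D5:**
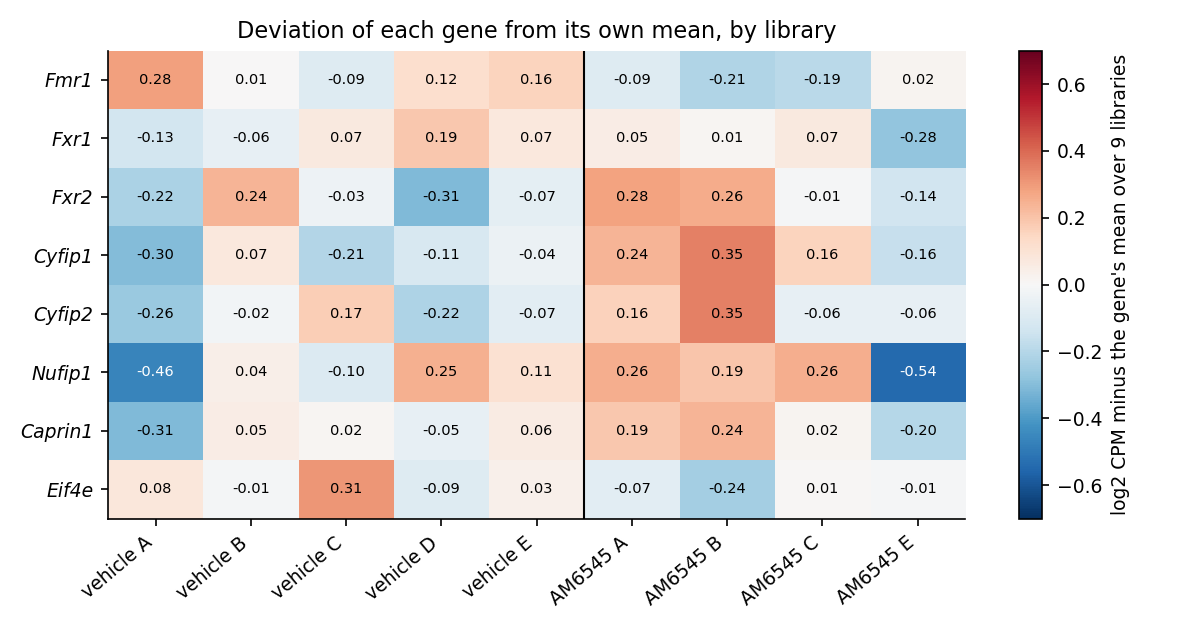
Log2 CPM of each gene in each library minus that gene's mean over all 9 libraries, as a colour scale centred on 0 with the value in each cell and a line between the groups. Vehicle A and AM6545 E hold the lowest values of Fxr1, Nufip1 and Caprin1 (Nufip1 at -0.46 and -0.54), and vehicle A the highest of Fmr1 (0.28).

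Genes whose library-to-library pattern was most like each of the 8 were found by Pearson r of log2 CPM over the 9 libraries, group means removed, and are given as a description without a test. For Fmr1 they were Pdlim5 (r = 0.96), Dnajc25 (0.95) and Mapre1 (0.95), and 2.87% of tested genes had an r over 0.8. Fxr1 was most like Drg1 (0.98), Psmd14 (0.98) and Pcna (0.97), and Fxr2 most like Pdk2 (0.99), Upf1 (0.98) and Ikbkb (0.98). For Cyfip1 they were Kdm4a, Sf3b3 (0.99) and Rnf112 (0.99), and for Cyfip2 Cdk18 (0.98), Cdyl2 (0.96) and Trmt61a (0.95). Nufip1 was most like Uba2, Snw1 and Tfg, and Caprin1 most like Trappc11, Hps6 and Syn1, each with r = 0.99. Eif4e was most like Cyb5r4 (0.99), Ube2w (0.98) and Vps26a (0.98). The share of genes past 0.8 was highest for Caprin1 (8.61%), Cyfip1 (8.05%) and Nufip1 (7.64%), so a high r with these 3 is shared with many genes.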

How the data were processed

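RNA from hippocampal synaptoneurosomes was sequenced from low-input SMARTer libraries on an Illumina NovaSeq instrument, as stated in the extraction protocol of the labels. The table the authors deposited holds estimated counts per gene for 9 samples, not scaled between samples. The submitters' processing notes name Salmon 1.3, DESeq2 1.30 and the builds GRCm39 and mm10, without their roles; annotation and strand setting are not given in the sources used here. Between 56.6% and 69.4% of values per library were exactly whole, with no tolerance. Genes were named by Ensembl identifier for 22155 of 22255 rows.

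Counts were rounded, filtered with filterByExpr, scaled by TMM and tested with edgeR 4.0.16 (R 4.3.3; quasi-likelihood, treatment only, all 9 samples), with Benjamini-Hochberg adjustment over 14512 genes. Standard errors and 95% intervals came from that fit, and log2 CPM used a prior count of 2. Ratios, pairs and group comparisons of single values used exact permutation tests, with ranks and Benjamini-Hochberg adjustment from scipy 1.17.1. No 2 samples were alike within counting error (chi-square per degree of freedom 8.94 to 78.77 over 36 pairs). Transcript lengths, sequences and coordinates came from GENCODE M21 (GRCm38), which may not be the authors' annotation. The fit was tested on simulated data. Alternatives were other scalings, filters and tests (DESeq2 1.42.0, limma 3.58.1), a transcript-length correction, a replicate block, and each library left out.

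The 8 genes and the companion lists were chosen with earlier results of these data known. The text names all 8 genes; from each list the genes with the largest and smallest log2 fold change, with the highest mean CPM or with an unadjusted p under 0.05; and for each of the 8 the 3 genes most like it. Nipa2 was added for its overlap with Cyfip1. Counting depth limits precision most for Fmr1.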

Additional observations from a re-analysis of the deposited data

Results flagged for a closer look

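Nufip1 stood at 14.3 CPM in AM6545 E, far from the other 3 AM6545 libraries at 23.9 to 25.0 CPM. Its gap to the nearest of them was 0.8995 of the group's whole range, past the 95% critical value of Dixon's test. The same test was applied to 26 sets of values (8 genes and 5 ratios in each group), of which 1 was past it, where chance gives about 1.3 at 1 in 20. With that library left out, the Nufip1 log2 fold change was 0.25 (edgeR adjusted p 0.454). Its oligodendrocyte marker sum, 14861 CPM, was the highest of the AM6545 group, as were those of astrocytes (2098 CPM), microglia (549 CPM, the highest of all 9 libraries) and choroid plexus (3499 CPM). Its hippocampal marker sum, 1340 CPM, was the lowest of that group, and its neuronal sum, 8329 CPM, lay in the group's range of 8299 to 9184 CPM. Of all 9 libraries it had the steepest rise of log2 CPM with transcript length, 0.065 for each doubling of length. Across the 9 libraries, group means removed, Nufip1 and this slope had r = -0.22 (exact permutation p = 0.564, adjusted over the 8 genes 0.933). Vehicle A, the other library with low Nufip1, had the lowest slope, -0.061. The part of the marker sums in the Nufip1 value was not tested.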

How the results depend on the processing

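None of the 8 genes passed the adjusted threshold in any of 22 alternatives, with 0.328 the lowest adjusted p, for Cyfip1 without vehicle B. The sign of a fold change turned for Fxr1 without AM6545 E (0.013, against -0.10 without vehicle A) and for Nufip1 without vehicle A (-0.0060, against 0.25 without AM6545 E). At an unadjusted p under 0.05 stood 3 of the 8 genes with limma-voom and sample weights (Fmr1, Fxr2 and Cyfip1) and 0 to 2 with a library left out. Over the whole table, 0 to 1 gene passed the adjusted threshold with a library left out (Gm14308 without AM6545 A, named after its value was seen), and 496 (without vehicle A) to 1848 (without AM6545 E) reached an unadjusted p under 0.05, against 1823 with sample weights. Title letters are shared by 4 pairs of samples, but the deviations of same-letter samples correlated between -0.02 and 0.34, with 1 pair over 0.1, and 1 of 4 AM6545 samples correlated best with its own letter. The letters were therefore not taken to pair samples, and with them as a replicate block 0 of the 8 genes stood at an unadjusted p under 0.05. With the longest transcript as length, levels were 11.1 for Fxr1, 19.7 for Cyfip1, 31.9 for Caprin1 and 53.3 CPM per kilobase for Eif4e. With group means kept, 7 pairs passed with a positive and 1 with a negative correlation (Fmr1 with Cyfip2), a measure that includes any treatment difference. The other values were counted once for each result under each alternative. Of these, 138 (main results) and 174 (single genes) kept direction and side of the adjusted threshold, or moved within the spread between libraries. Some of them crossed an unadjusted p of 0.05, such as Cyfip1 without AM6545 B (edgeR unadjusted p 0.117). The 4 and 5 samples limit what could be detected: the 95% interval of Fmr1, for example, reaches from -0.46 to 0.03.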
